A study of Mus musculus with 281 samples.

Results

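The genes described here are 6 members of the solute carrier 9 family of sodium-proton exchangers, Slc9a2, Slc9a3, Slc9a4, Slc9a7, Slc9a8 and Slc9a9, chosen by name from the 47752 genes of the deposited count table. Their levels were read as CPM, the estimated counts of a gene in a cell scaled to a fixed total for that cell. The cells came from the stria vascularis, the ion-transporting tissue of the cochlear lateral wall, and were dissociated with collagenase, picked one at a time with a glass micropipette and sequenced by Smart-Seq2, a full-length single-cell method. There were 40 cells from Slc26a4+/- mice, aged P26 to P33, and 69 cells from Slc26a4-/- mice, aged P24 to P44. The others, whose numbers by cluster are given below, were from Slc26a4+/+ mice, aged P22 to P42. The mice were male and on the 129S6 background, and differed, as far as the labels go, in the germline alleles of Slc26a4, the gene for the chloride-bicarbonate exchanger pendrin, which every cell of the body carries. The labels do not tie cells to mice. A genotype therefore stood as 1 sample whose cells were not replicates, and no difference below has a p-value. Spread is given over cells, over the 4 sequencing runs named in the file names (run batches), and over sessions, which are the cells that share a run batch, a day code and an age.

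Sodium-proton exchangers move a proton across a membrane in exchange for a sodium ion, and so set the pH of the cell or of its organelles. NHE2 (Slc9a2), NHE3 (Slc9a3) and NHE4 (Slc9a4) work at the plasma membrane of epithelia, NHE3 being the apical exchanger of kidney and gut and NHE4 a basolateral one in stomach and kidney. NHE7 (Slc9a7), NHE8 (Slc9a8) and NHE9 (Slc9a9) sit mainly in the Golgi, the trans-Golgi network and endosomes, where they oppose acidification by the vacuolar proton pump. In the stria vascularis the endolymph is kept potassium-rich and slightly alkaline, and pendrin of spindle and root cells secretes bicarbonate into it.

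Cells were clustered without the 6 genes and named from markers. The named clusters were intermediate cell-like (IMC-like), spindle cell-like (SC-like, 34 cells), root cell-like (RC-like, 35 cells) and marginal cell-like (MC-like, 21 cells), and in each 97.1% or more of the cells scored highest for their own markers. IMC-like cells numbered 55 in Slc26a4+/+, 22 in Slc26a4+/- and 35 in Slc26a4-/- mice. No name was given to 62 cells with Hbb-bs and Hba-a1 as leading genes, nor to 17 cells with Crhbp, Vmo1 and Slc26a7 as leading genes (Crhbp-led). The Slc26a4+/+ cells were 55 IMC-like, 23 SC-like, 16 RC-like, 14 MC-like, 53 Hbb-bs-led and 11 Crhbp-led ones, and 34 cells lay within 0.25 of another type on the marker score. SC-like and RC-like cells together are called pendrin cells, 39 from Slc26a4+/+, 8 from Slc26a4+/- and 22 from Slc26a4-/- mice. Over all pendrin cells the targeted gene did not separate the labels. Slc26a4 averaged 969 CPM in Slc26a4+/+ and 793 CPM in Slc26a4-/- pendrin cells, with 26 of 39 and 11 of 22 cells at 10 or more counts, and whether the allele leaves a transcript is not given in the sources used here. Its RNA is therefore no check of the labels, and the directions between genotypes below are those the labels give. A cell held between 1848 and 7932729 counts, with a median of 1312950, and 20 cells, from Slc26a4+/+ mice in each case, held under 100000. Blood and marrow markers, 9 genes, summed to a median of 16.7 CPM in Slc26a4+/+ and 1.09 CPM in Slc26a4-/- pendrin cells. In SC-like cells the 8 SC markers summed to a median of 44041 CPM in Slc26a4+/+ (11541 to 120743) and 9502 CPM in Slc26a4-/- mice (4297 to 24717), and the 9 MC markers to 3682 and 8501 CPM. In IMC-like cells the 4 pericyte markers summed to a median of 11.4 CPM in Slc26a4+/+ (highest 783) and 129.95 CPM in Slc26a4-/- mice (highest 2908). The part of these in the differences below was not tested. Within run batch 4 no day code held cells of both genotypes, so that day and genotype cannot be told apart there, and in batch 2 there were 5 such day codes.

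For Slc9a2, Slc9a7 and Slc9a8 the counts fell on transcripts that differed between cells. The stretches at which these transcripts part are shown so that a reader can tell the forms apart. Each stretch is read from GRCm38 along the GENCODE M21 transcripts, 5′ to 3′, with 40 bases that both forms share in lower case and the first 20 bases that tell them apart in capitals.
Slc9a2 long form (ENSMUST00000027231), exon 3 into exon 4: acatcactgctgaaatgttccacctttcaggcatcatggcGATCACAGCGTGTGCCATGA
Slc9a2 short form (ENSMUST00000192345), reading on past exon 3: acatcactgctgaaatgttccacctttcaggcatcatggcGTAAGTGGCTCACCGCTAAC
Slc9a7 form A (ENSMUST00000072451), exon 12 into its next exon: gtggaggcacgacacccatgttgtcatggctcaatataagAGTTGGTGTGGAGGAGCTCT
Slc9a7 form B (ENSMUST00000115393), exon 12 into an exon of its own: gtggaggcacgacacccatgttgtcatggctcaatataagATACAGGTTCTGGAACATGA
Slc9a8 long form (ENSMUST00000047815), exon 3 into exon 4: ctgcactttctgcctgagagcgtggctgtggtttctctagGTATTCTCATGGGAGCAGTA
Slc9a8 intron form (ENSMUST00000124139), reading on past exon 3: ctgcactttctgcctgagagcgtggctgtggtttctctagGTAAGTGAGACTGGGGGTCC

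For Slc9a2 the shared bases lie at chr1:40726419-40726458 on the plus strand, and both transcripts are annotated as coding. The short form has 3 exons and ends in what is the third intron of the long form, which has 12, so that it codes for the beginning of the exchanger alone. For Slc9a7 the shared bases lie at chrX:20158815-20158854 on the minus strand. Form A, of 17 exons, skips 19842 bases to its next exon, and form B, of 13 exons, skips 5913 bases to its last. Slc9a7 as a whole lies at chrX:20105754-20291807. Its forms C and D (ENSMUST00000130938 and ENSMUST00000151845) are annotated as retained introns. For Slc9a8 the shared bases lie at chr2:167434823-167434862 on the plus strand, and the intron form is annotated as a retained intron. Slc9a8 as a whole lies at chr2:167421712-167477000. Slc9a4 and Slc9a2 are neighbours on chromosome 1 with 49848 bases between them, at chr1:40580081-40630725 and chr1:40680574-40769273, both on the plus strand. Slc9a9 lies at chr9:94669909-95230445 on the plus strand and Slc9a3 at chr13:74121457-74169442 on the plus strand. Slc9a4 shares exon bases with the annotated genes Gm35801 and Gm37435, and its counts could be divided with them.

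The first question was in which cell types of the Slc26a4+/+ stria the exchangers were found. Of the 6 members, 5 had counts, and each of these 5 had its highest mean in RC-like or SC-like cells among the 4 named types. Over all 18755 genes with a count in those types, 53.1% had their highest mean there, so the place of the highest mean alone is not particular to the family. The differences in size set the members apart. Slc9a2 and Slc9a4 were at or near 0 in IMC-like cells and averaged 102.2 and 68.6 CPM in pendrin cells, whereas Slc9a7, Slc9a8 and Slc9a9 were found in both. Against IMC-like cells, 20.7% of all genes were at least 2-fold higher in pendrin cells, on the log2(CPM + 1) scale of the means. That share takes in genes too low to reach 2-fold on this scale, and one for genes at the members' levels is not given. All 5 members with counts were past that fold, but Slc9a8 and Slc9a9 by little, at 1.04 and 1.01, and these 2 were past it under 6 and 10 of 17 other settings.

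**Figure D1:**
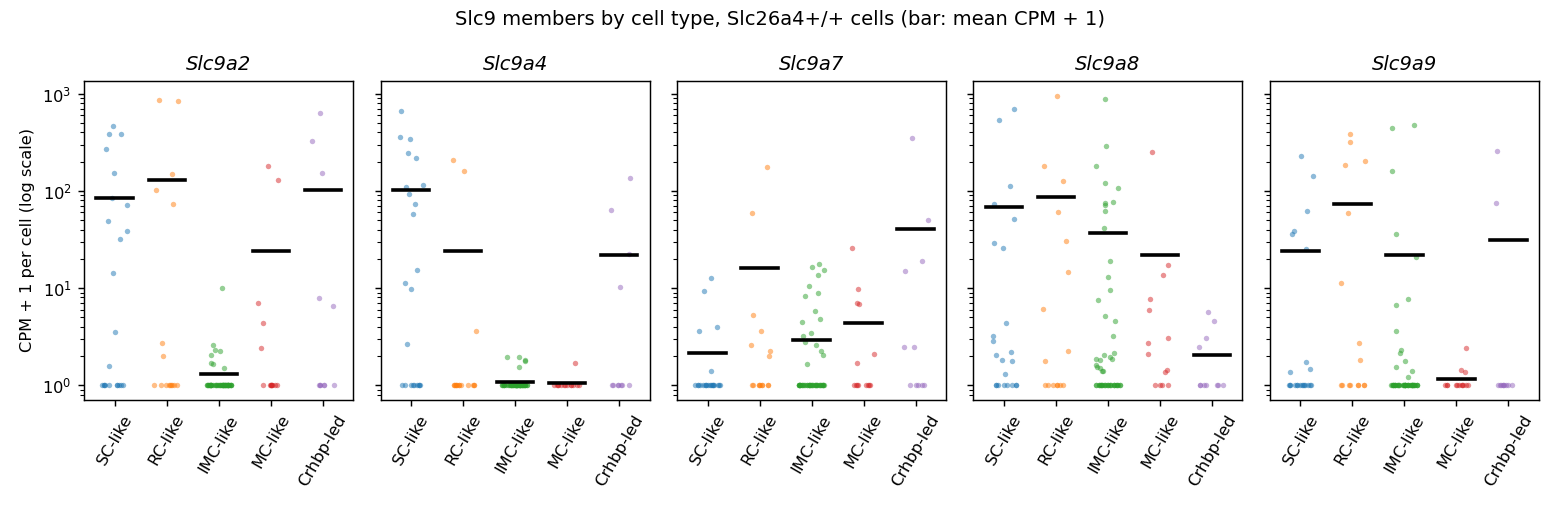
Each point is 1 Slc26a4+/+ cell and the vertical axis is its CPM + 1 on a log scale, for 5 Slc9 genes in SC-like (n = 23), RC-like (n = 16), IMC-like (n = 55), MC-like (n = 14) and Crhbp-led cells (n = 11). Black bars are mean CPM + 1. Slc9a2 and Slc9a4 lie at or near 0 in IMC-like cells, where single cells of Slc9a8 and Slc9a9 reach 885 and 471 CPM.

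Slc9a2, which encodes NHE2, averaged 127.5 CPM in RC-like cells (lowest 0, median 0, highest 866, n = 16) and 84.6 CPM in SC-like cells (lowest 0, median 2.49, highest 471, n = 23). In MC-like cells its mean was 22.9 CPM (median 0, highest 179.7, n = 14), and in IMC-like cells 0.294 CPM (median 0, highest 9.12, n = 55). The levels were those of a minority of cells in each type, since 16 of 39 pendrin cells held 10 or more counts (exact 95% interval of the share, 25.6% to 57.9%) and none of 55 IMC-like cells did (upper bound 6.49%). All such intervals cover counting error only. The log2 difference between pendrin and IMC-like cells was 6.32, with an SD of 3.504 over the 4 run batches, and 3 of the 4 batches shared its sign. In run batch 2, none of the 3 pendrin cells had a count. Of 15 sessions with both kinds of cell, the mean of pendrin cells was higher in 10, lower in 1 and the same in 4. RC-like and SC-like cells differed by 0.59 on the log2 scale, less than the SD between batches of 2.23, as did SC-like and MC-like cells, by 1.84 against 2.28.

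Slc9a4, which encodes NHE4, was highest in SC-like cells, at 100.2 CPM (lowest 0, median 10.2, highest 664.5, n = 23). It averaged 23.3 CPM in RC-like cells (median 0, highest 209.6), 0.073 CPM in those of IMC-like type, and in MC-like cells 0.0486 CPM, where 1 count in 1 of 14 cells was all that was found. At 10 or more counts it was found in 11 of 23 SC-like cells (26.8% to 69.4%) and in 2 of 16 RC-like cells (1.55% to 38.3%), which overlap. SC-like cells were higher than RC-like cells in 4 of 4 run batches, by 2.06 on the log2 scale, but the SD between batches was 2.25, and the 5 sessions with both types went 2 to 2 with 1 tie. Against IMC-like cells, pendrin cells were higher by 6.02 (SD 1.89) in 4 of 4 batches, so of the 5 genes with counts Slc9a4 had the difference that was largest relative to the spread. Pendrin cells were higher in 8, lower in 2 and level in 5 of the 15 sessions.

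Some pendrin cells held both membrane exchangers. Over all genotypes, Slc9a4 was at 10 or more counts in 17 of 29 pendrin cells with 10 or more counts of Slc9a2 (58.6%, interval 38.9% to 76.5%) and in 7 of 40 without (17.5%, 7.34% to 32.8%). In Slc26a4+/+ pendrin cells these were 9 of 16 and 4 of 23. Pendrin RNA itself did not go with Slc9a2 in this way, being at 10 or more counts in 17 of 29 cells with Slc9a2 and in 24 of 40 without. With Slc9a4 it was in 18 of 24 cells (75%, 53.3% to 90.2%) and without Slc9a4 in 23 of 45 (51.1%, 35.8% to 66.3%), which overlap. Of the Slc26a4+/+ pendrin cells at this cut, 10 of 16 for Slc9a2 and 10 of 13 for Slc9a4 came from run batch 3. The cut is not corrected for depth, and the share of other gene pairs with such a gap was not taken. Cells that share a session or a depth are not independent, and no test was made.

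Slc9a3, which encodes NHE3, had no count in any cell of any genotype, which allows a share of up to 1.07% of cells with a count, taking 3 cells as the limit. A single transcript of 2490 bases and 16 exons, annotated as coding, was quantified for it. Ezr, the linker of NHE3 to the actin cortex, averaged 876 CPM in SC-like and 456 CPM in RC-like cells of Slc26a4+/+ mice, and Slc9a3r1, the scaffold NHERF1 known from its binding to NHE3, 75.6 and 181.3 CPM. The scaffold genes Pdzk1 and Pdzd3 were found in 1 cell and in 0 cells. At this depth NHE3 RNA was thus not detectable, while RNA of some of its known partners was.

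Slc9a8, which encodes the Golgi exchanger NHE8, was the member found in the most cells and the one with the least difference between types. Its means were 86.1 CPM in RC-like (highest 959), 66.5 CPM in SC-like (highest 691), 35.7 CPM in IMC-like (highest 885) and 20.998 CPM in MC-like cells (highest 248.04), with medians between 0.385 and 1.39 CPM. No neighbouring pair in this order differed beyond the SD between batches, which was 5.48, 3.73 and 1.97 from top to bottom. The difference between pendrin and IMC-like cells was 1.04 (SD 3.28), and the 15 sessions went 7 to 7 with 1 tie. The SC-like mean includes a cell of 1848 counts in which 1 count of Slc9a8 made 541 CPM. Without cells under 100000 counts the SC-like mean was 47.1 CPM.

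Slc9a9, which encodes the endosomal exchanger NHE9, averaged 72.4 CPM in RC-like cells (median 0.404, highest 384), 23.1 CPM in SC-like cells (median 0, highest 228.5), 20.96 CPM in IMC-like cells (median 0, highest 471) and 0.156 CPM in MC-like cells (highest 1.39). Its near absence from MC-like cells was the one step in this order beyond the SD between batches, 4.25 against 2.83, in 3 of 3 batches. RC-like cells were above SC-like cells in 4 of 4 batches, by 1.61 (SD 3.00), and in 4 of the 5 sessions with both, the remaining one being level. Without shallow cells the RC-like mean was 51.6 CPM.

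Slc9a7, which encodes the trans-Golgi exchanger NHE7 and lies on the X chromosome, was the lowest of the 5 in pendrin cells. It averaged 15.2 CPM in RC-like cells (median 0, highest 174.96), 3.40 CPM in MC-like cells (highest 25.1) and 1.95 CPM in IMC-like cells (highest 16.7). The SC-like mean was 1.14 CPM (highest 11.7). The RC-like mean came to 71.8% from its highest cell and was 4.59 CPM without it. The SC-like mean was below that of IMC-like cells, so the excess of pendrin over IMC-like cells, 1.43 (SD 0.78) and of the same sign in 4 of 4 batches, was carried by RC-like cells. By session it was not steady, since pendrin cells were higher in 7, lower in 6 and level in 2 of 15.

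**Figure D2:**
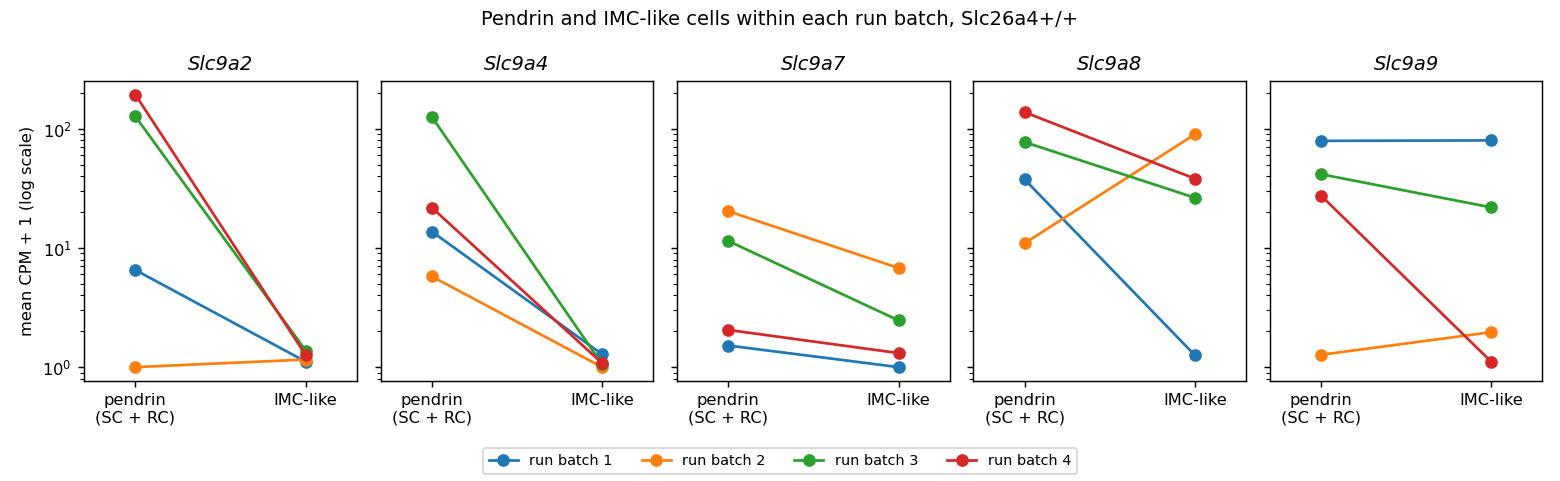
Lines join the mean CPM + 1 (log scale) of pendrin cells and of IMC-like cells from the same run batch, Slc26a4+/+ mice, for 5 Slc9 genes. Slc9a4 falls from pendrin to IMC-like cells in all 4 batches and Slc9a2 in 3 of 4, whereas lines of Slc9a8 and Slc9a9 go both ways.

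To compare genes with each other, TPM, which take transcript length into account, were summed per gene. In Slc26a4+/+ pendrin cells, mean TPM was 40.3 for Slc9a8, 34.9 for Slc9a4, 31.1 for Slc9a2, 20.6 for Slc9a9 and 5.29 for Slc9a7. In IMC-like cells the order was Slc9a8 at 33.5, Slc9a9 at 9.33, Slc9a7 at 1.40, Slc9a2 at 0.0928 and Slc9a4 at 0.0523. The organellar exchangers thus made up nearly all Slc9 transcripts of these 6 genes in IMC-like cells. At least 2 of the members reached 10 counts in 16 of 39 Slc26a4+/+ pendrin cells and in 1 of 55 IMC-like cells, and none did in 10 and in 35. This in part restates the near absence of Slc9a2 and Slc9a4 from IMC-like cells, where neither reached 10 counts in any Slc26a4+/+ cell. The cut is not corrected for depth, and no share for other sets of genes was taken.

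The Crhbp-led cluster, whose 11 Slc26a4+/+ cells averaged 334 CPM of Slc26a4 and 5237 CPM of Slc26a7, also held members, each in few cells. Slc9a2 averaged 101.8 CPM there (median 0, highest 629.6) and 48.99 CPM without its highest cell. Slc9a7 averaged 39.5 CPM (median 1.46, highest 351) and 8.33 CPM without that cell. For Slc9a9 the mean was 29.9 CPM (highest 254.4) and 7.45 CPM without it, and for Slc9a4 20.8 CPM (highest 135.3) and 9.33 CPM. These means thus rested largely on 1 cell each, while Slc9a8 averaged 1.06 CPM and reached 10 counts in none of the 11 cells (upper bound 28.5%). By mean TPM most of the Slc9a2 signal in this cluster was the short form shown above, at 32.6 TPM for the short and 10.1 TPM for the long form. In RC-like cells these were 0.0567 and 36.8 TPM, and in SC-like cells 7.08 and 20.01 TPM, so the short form was not limited to the Crhbp-led cells. The Crhbp-led values rested on few cells. Those with 10 or more counts of Slc9a2 were 1 of 3, 2 of 5 and 0 of 3 in run batches 2, 3 and 4. How many cells held each form was not taken.

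The second question was whether the exchangers differed between genotypes within a cell type. In pendrin cells, 1 member, Slc9a7, was at least 2-fold apart between Slc26a4-/- and Slc26a4+/+ mice. Of 17922 genes, 33% were that far apart, so 1 of 5 is not more than the background. Those higher in Slc26a4-/- cells were 12.9% and those lower 20.1%. Run batches that hold both genotypes are 2 and 4, and within them the shares of genes past 2-fold were 66% and 47.7%. The median log2 difference over all genes with a count was 0.96 in batch 2 and 0.02 in batch 4. For genes averaging 10 CPM or more in either genotype it was 1.88 and 0.02. Positive values within batch 2 below are to be read against that shift. Batch 2 had 3 Slc26a4+/+ and 15 Slc26a4-/- pendrin cells, and batch 4 had 8 and 7.

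Slc9a7 averaged 6.92 CPM in 39 Slc26a4+/+ pendrin cells (lowest 0, median 0, highest 174.96), 19.1 CPM in 8 Slc26a4+/- cells (median 0.0755, highest 132.01) and 86.8 CPM in 22 Slc26a4-/- cells (lowest 0, median 0, highest 1086). The log2 difference between Slc26a4-/- and Slc26a4+/+ was 3.47, and 3.52 without the highest cell of each. It was 2.50 in run batch 2 and 3.82 in batch 4, and it was positive in SC-like cells alone, 4.43 (1.60 without the highest cell), and in RC-like cells alone, 2.85 (2.68). In batch 4 the Slc26a4+/+ cells did not go above 2.99 CPM, whereas 3 of 7 Slc26a4-/- cells held 10 or more counts and the highest had 109.1 CPM. Cells with 10 or more counts were 4 of 39 (2.87% to 24.2%) and 7 of 22 (13.9% to 54.9%), which overlap, and came from 4 of 18 and from 5 of 7 sessions. Most of the Slc26a4-/- mean thus came from a few cells, 56.9% of it from the highest. In IMC-like cells Slc9a7 averaged 1.95 CPM in Slc26a4+/+ (highest 16.7, n = 55) and 2.16 CPM in Slc26a4-/- mice (highest 12.7, n = 35), with -0.94 and 0.89 in batches 2 and 4.

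**Figure D3:**
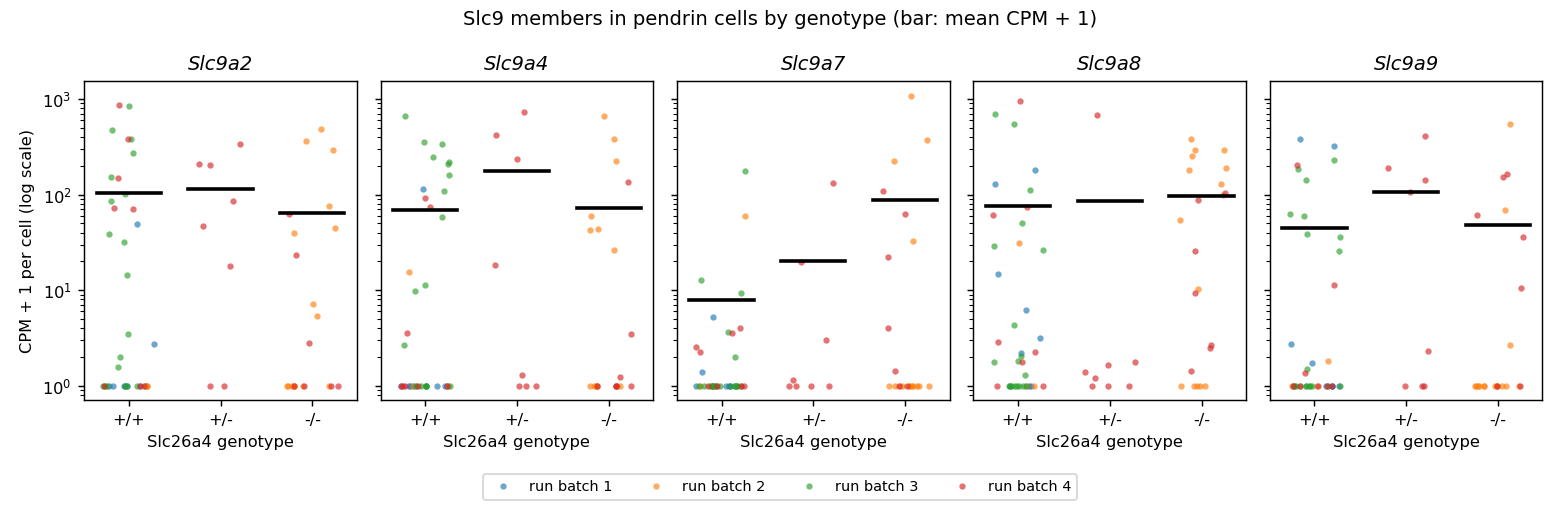
Each point is 1 pendrin cell, coloured by run batch, with its CPM + 1 on a log scale for 39 Slc26a4+/+, 8 Slc26a4+/- and 22 Slc26a4-/- cells, and black bars are mean CPM + 1. The Slc9a7 mean is 6.92 CPM in Slc26a4+/+ and 86.8 CPM in Slc26a4-/- cells, and for all 5 genes many cells of each genotype lie at 0.

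The Slc9a7 counts also lay on different transcripts. The 4 Slc26a4+/+ pendrin cells with 10 or more counts had a mean of 96.9% of them on form B, and form A held 14.2 counts in 1 of them. Of the 7 such Slc26a4-/- cells, 4 had form A as nearly their only form, with 86 to 506 counts, 1 had form B, and the other two were led by the retained-intron forms C and D. In Slc26a4+/- mice 2 of 8 pendrin cells held form A alone, at 318 and 32 counts. Mean TPM of form A was 0.138 in Slc26a4+/+ and 34.7 in Slc26a4-/- pendrin cells, and that of form B was 4.73 and 12.5. At 10 or more counts, form A was in 1 of 39 Slc26a4+/+ cells (0.0649% to 13.5%) and in 4 of 22 Slc26a4-/- cells (5.19% to 40.3%), which overlap. Each of the 8 IMC-like cells with 10 or more counts, of any genotype, held form B alone. Form A was not absent from Slc26a4+/+ tissue, since it held 411 counts in 1 of 11 Crhbp-led cells and 667 counts in 1 of 53 Hbb-bs-led cells.

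**Figure D4:**
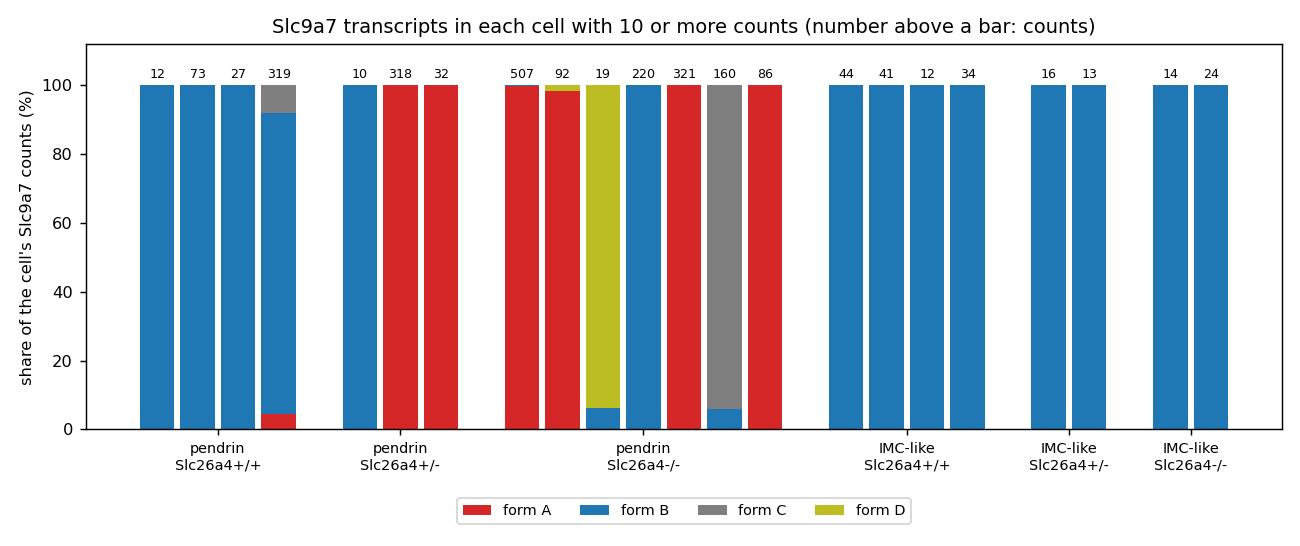
Each bar is 1 pendrin or IMC-like cell with 10 or more Slc9a7 counts, divided by the percent of those counts on each of 4 transcripts (forms A to D), with the number of counts above it. A Slc26a4+/- cell with 9.91 estimated counts is drawn as 10. Form B fills the 8 bars of IMC-like cells, and form A leads in 4 of 7 Slc26a4-/- and in none of 4 Slc26a4+/+ pendrin cells.

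Slc9a8 averaged 74.6 CPM in Slc26a4+/+ (median 1.04, highest 959) and 95.3 CPM in Slc26a4-/- pendrin cells (median 38.9, highest 376.2), a log2 difference of 0.35, but it was found in a larger share of the Slc26a4-/- cells. After thinning each cell to 100000 counts, it was found in 10 of 36 Slc26a4+/+ cells (27.8%, 14.2% to 45.2%) and in 15 of 22 Slc26a4-/- cells (68.2%, 45.1% to 86.1%). The unthinned shares were 61.5% and 77.3%. Of all genes, 2.35% had a share 30 points or more higher in Slc26a4-/- pendrin cells, a limit chosen after these values were seen. Cells with 10 or more counts came from 8 of 18 and from 7 of 7 sessions. Cells with 10 or more counts were 11 of 39 and 14 of 22 in all, 1 of 3 and 10 of 15 in run batch 2, and 3 of 8 and 4 of 7 in run batch 4. At this cut, which is not corrected for depth, the larger share was also seen within both batches, on few cells. Over all cell types, the median depth in batch 4 was 1796498 counts in Slc26a4+/+ and 3362328 in Slc26a4-/- cells. In batch 2 it was 1061609 and 618254. In IMC-like cells the thinned shares were 29.1% (17.6% to 42.9%) and 48.6% (31.4% to 66.01%), a gap under 30 points, which 2.36% of genes reached there.

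Slc9a2, Slc9a4 and Slc9a9 were less than 2-fold apart in pendrin cells. Their differences within the run batches were larger, of unlike sign for Slc9a2 and Slc9a4 and of like sign for Slc9a9. Slc9a2 averaged 102.2 CPM in Slc26a4+/+ (highest 866) and 62.98 CPM in Slc26a4-/- cells (highest 480), a log2 difference of -0.69 that was 6.45 in batch 2, where the 3 Slc26a4+/+ cells were at 0, and -3.86 in batch 4. Slc9a4 averaged 68.6 and 71.3 CPM, a difference of 0.05, with 4.06 in batch 2 and -0.09 in batch 4, the latter being -3.01 without the highest cells. It was found at 10 or more counts in 13 of 39 and in 7 of 22 cells. Slc9a9 averaged 43.3 and 47.1 CPM, a difference of 0.12, with 5.05 and 1.15 in the batches. In SC-like cells alone Slc9a9 averaged 23.1 CPM in 23 Slc26a4+/+ cells and 0.189 CPM in 9 Slc26a4-/- cells (highest 1.70), while in RC-like cells it averaged 72.4 and 79.6 CPM. Those 9 cells were all from batch 2, where the 2 Slc26a4+/+ SC-like cells were at 0, a difference of 0.25, and the Slc26a4+/+ mean came from batch 3, at 35.3 CPM in 15 cells. Pendrin cells were mostly SC-like in Slc26a4+/+ mice and mostly RC-like in Slc26a4-/- mice, 23 of 39 and 9 of 22.

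In IMC-like cells no member was 2-fold apart between Slc26a4-/- and Slc26a4+/+ mice, against 25.3% of 18092 genes. Slc9a8 averaged 35.7 and 59.98 CPM, a difference of 0.73, with -0.83 in batch 2 and 1.08 in batch 4. Without the highest cell of each genotype the batch 2 value was 4.2 and the pooled one 1.17, past 2-fold. Slc9a9 averaged 20.96 and 12.9 CPM, a difference of -0.66, but 2.23 and 4.38 within the batches, where Slc26a4+/+ cells averaged 0.965 and 0.107 CPM. On the 4 day codes with IMC-like cells of both genotypes (12 Slc26a4-/- and 9 Slc26a4+/+ cells), the Slc26a4-/- mean of Slc9a8 was higher on 3 and lower on 1, that of Slc9a9 higher on 2, lower on 1 and level on 1, and that of Slc9a7 higher on 2 and lower on 2. Slc9a2 and Slc9a4 stayed below 0.3 CPM on average in both. In Slc26a4+/- mice, which were sequenced in run batch 4, Slc9a8 averaged 16.6 CPM in 22 IMC-like cells, a log2 difference of -1.06 from Slc26a4+/+ mice that 26.3% of genes reached in size, and -1.12 within that batch. Without the highest cell of each genotype it was -0.79, under 2-fold. In their 8 pendrin cells Slc9a4 averaged 174.6 CPM (median 8.75, highest 722), Slc9a9 106.4 CPM (median 53.2, highest 414) and Slc9a2 112.4 CPM (median 66.04, highest 338). The differences from Slc26a4+/+ cells were 1.33 for Slc9a4, 1.28 for Slc9a9 and 1.34 for Slc9a7, and 3.01, 1.96 and 3.29 within run batch 4. Without the highest cell of each genotype they were 0.85, 0.84 and 0.19, so none of the 3 was then 2-fold apart, and within batch 4 they were 3.05, 4.65 and 1.17. Slc9a8 averaged 84.5 CPM, of which 99.7% came from 1 cell. Over all genes 40.3% were 2-fold apart in that comparison and 47.2% within batch 4. It shares its Slc26a4+/+ cells with the comparison of Slc26a4-/- mice.

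How the counts of a member were made up differed with its level, as taken from the sums of its transcripts. In 34 of 40 cells with 10 or more counts of Slc9a2, and in 33 of 37 for Slc9a7, 1 transcript held over 90% of them, whereas for Slc9a8 it was 27 of 75, with 9 different transcripts leading in one cell or another. In the 85 cells with 1 to 9 counts of Slc9a8, the intron form held a mean of 60.6% of the counts, and in the 75 cells with 10 or more it held 6.55%. For the long form these were 0.673% and 23.6%. Few counts of Slc9a8 in a cell thus mostly meant reads placed on a retained intron, which bears on its share of cells with any count. For Slc9a7 a mean of 78.9% was on form B in the 71 cells with 1 to 9 counts. The longest coding forms of Slc9a4 and Slc9a9 (ENSMUST00000027233 and ENSMUST00000033463) held 92.6% and 93.2% of all counts of their genes.

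Of other genes of the family, taken from a list chosen by name, Slc9b2 was the one with counts in a fair number of pendrin cells. It encodes NHA2, a sodium-proton antiporter of a more distant branch. It averaged 7.33 CPM in Slc26a4+/+ (median 0.897, highest 81.5), 4.61 CPM in Slc26a4+/- (median 3.01, highest 11.5) and 4.31 CPM in Slc26a4-/- pendrin cells (median 1.58, highest 20.2). The ranges of the 3 genotypes overlapped. Slc9b1 averaged 0.369 CPM in Slc26a4+/+ and 0.324 CPM in Slc26a4-/- pendrin cells and reached 10 counts in none of them. Slc9a5 was found in 1 cell and Slc9c1 in 0.

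Regulators that bind or traffic sodium-proton exchangers were a list of 12 genes, of which 10 had counts and 6 had their highest mean in SC-like or RC-like cells, near the 53.1% of all genes. In IMC-like cells, 1 of the 10 was 2-fold higher in Slc26a4-/- than in Slc26a4+/+ mice and 2 were lower, against 9.86% and 15.4% of all genes. Slc9a3r1 averaged 10.7 CPM in Slc26a4+/+ (median 0, highest 188.1) and 45.2 CPM in Slc26a4-/- cells (median 1.74, highest 189.1), a difference of 1.98 that was 4.77 and 6.08 in batches 2 and 4. It was at 10 or more counts in 4 of 55 (2.02% to 17.6%) and in 14 of 35 cells (23.9% to 57.9%). This cut is not corrected for depth, and the share of all genes with such a gap was not taken. Slc9a3r2, the related scaffold NHERF2, averaged 29.7 CPM in Slc26a4+/+ (highest 805) and 2.95 CPM in Slc26a4-/- cells (highest 78.6), a difference of -2.96, with -5.43 and -1.27 in the batches, and 8 of 55 against 2 of 35 cells had 10 or more counts (6.49% to 26.7% and 0.70% to 19.2%). Tesc, which encodes the calcium-binding protein tescalcin, averaged 24.5 and 4.69 CPM, a difference of -2.16 of unlike sign in the batches. In pendrin cells 1 of the 10 was 2-fold apart, against 33% of all genes. It was Ahcyl1 (IRBIT, which binds NHE3), at 60.4 and 27.04 CPM, with 4.67 and -0.32 in the batches.

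Acid-base and sodium transporters and pumps that could work beside the exchangers were a list of 18 genes, and 17 had counts. Of these, 10 had their highest mean in SC-like or RC-like cells, near the 53.1% of all genes, among them Slc26a4, Car12 and Car13, encoding carbonic anhydrases, and the epithelial sodium channel subunits Scnn1a, Scnn1b and Scnn1g. Car2 and Car14 were highest in IMC-like cells, at 844 and 2557 CPM. The intercalated-cell genes Foxi1, Atp6v1b1 and Atp6v0a4 were found in 0, 2 and 6 cells. In pendrin cells 3 of the 17 were 2-fold higher and 2 lower in Slc26a4-/- mice, against 12.9% and 20.1% of all genes, with a median of 0.35 over the list and -0.07 over all genes. Of these 5, Scnn1a, at 56.7 and 201.5 CPM, and Slc4a2, the basolateral anion exchanger, at 161.8 and 68.9 CPM, kept their sign in run batches 2 and 4.

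Over the Slc26a4+/+ cells with 100000 or more counts, the genes whose log2(CPM + 1) went most with that of Slc9a2 were Asap3 (r = 0.584), Pvrl4 (r = 0.556) and Cldn3 (r = 0.531), a tight-junction claudin, among 10524 genes found in at least 20% of the cells. Within the 36 pendrin cells of that set, r was 0.369, 0.256 and 0.414. The cells share depth and session, and these values describe them only. For Slc9a7, Slc9a8 and Slc9a9 no gene reached r = 0.5, and Slc9a4 was found in 19.1% of the cells and so fell below the limit.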

How the data were processed

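Single cells of the stria vascularis of the 3 Slc26a4 genotypes were studied. The authors aligned reads to the GRCm38 (mm10) transcriptome with Kallisto and deposited estimated counts and TPM per transcript, and whole-number estimated counts per gene made with their own script. The annotation release is not given in the sources used here. Transcripts were assigned to genes with GENCODE M21, which lacked 1288 of 98492. The lengths of all 28 transcripts of the members matched. Of the gene table's columns, 17 were of no sample used here and were left out. Kallisto divides reads among alike transcripts, and Smart-Seq2 has no molecular identifiers, so counts are not molecules.

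CPM, counts per gene over the counts of the cell, were computed from the gene table. Cells were clustered with Seurat 5.3.0 (R 4.3.3) on 1884 variable genes, without the members, the genes of the lists and those the study reports on, with 10 principal components at resolution 0.8. Clusters took a type's name when 80% or more of the cells had that type as top marker score. Cells were picked singly under a microscope, and neither a doublet caller nor a filter on cells was used. Differences are log2 ratios of mean CPM with a pseudocount of 1, and a 2-fold ratio was the limit for naming a difference. Shares have exact Clopper-Pearson 95% intervals (scipy 1.17.1). The ratio was tested on simulated data that had counting error but no other spread between cells and no run batches. That test therefore does not bear on members held by few cells. No test between genotypes was made, since no mouse is named for a cell. A member was named always, and other genes by list. Some genes of the list of other family members are not reported here. The members, lists and limits were chosen with earlier results of these data known. Alternatives were other cell naming, filters, units, pseudocounts and run batches.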

Additional observations from a re-analysis of the deposited data

Results flagged for a closer look

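The differences of Slc9a2 and Slc9a8 between Slc26a4-/- and Slc26a4+/+ pendrin cells went opposite ways in the 2 run batches that hold both genotypes, and by over 2-fold in each. For Slc9a2 the log2 difference was 6.45 in run batch 2 and -3.86 in run batch 4. For Slc9a8 it was 3.52 in run batch 2 and -2.05 in run batch 4. Without the highest cell of each genotype the batch 4 values were -4.29 for Slc9a2 and 0.06 for Slc9a8, so for Slc9a8 the opposite direction rested on 1 Slc26a4+/+ cell of 959 CPM. Batch 2 holds 3 Slc26a4+/+ pendrin cells, and the median difference there over all genes with a count was 0.96. The difference between batches was not tested. Slc9a7 averaged 39.5 CPM in the Slc26a4+/+ cells of the unnamed Crhbp-led cluster, above its mean in each of the 4 named cell types, and 80.8% of that sum came from 1 of 11 cells.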

How the results depend on the processing

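No analysis paired by mouse was possible because the labels do not tie cells to mice, and no test was made. The 5 day codes with both genotypes were compared as values only. IMC-like cells of both genotypes were on 4 of them, and pendrin cells of both on 1, with 1 cell each. On that 1 day code Slc9a8 was higher in the Slc26a4-/- pendrin cell, and Slc9a7 and the other members with counts were level. The number of members with their highest mean in pendrin cells, 5, was 4 or 5 under 13 other settings, which were other clusterings, cell filters, TPM, pooled cells, thinning and leaving out the highest cell or a run batch. The number 2-fold apart between Slc26a4-/- and Slc26a4+/+ pendrin cells, 1, was 2 with TPM and in SC-like cells alone, 3 in pooled cells and in RC-like cells alone, 5 within run batch 2 and 4 within run batch 4, and ranged from 2 to 4 when each run batch was left out in turn. The number in IMC-like cells, 0, was 1 in pooled cells, without the highest cell, within run batch 2 and on the 4 day codes with IMC-like cells of both genotypes (chosen after seeing the data), and 2 with a pseudocount of 0.1 and within run batch 4, and ranged from 0 to 1 when a run batch was left out. The cause was not tested. In SC-like cells alone the Slc9a7 difference from IMC-like cells turned to -0.46. Slc9a7 was 2-fold or more higher in Slc26a4-/- pendrin cells under all 19 settings, by 1.98 to 4.43, including one that adds the Crhbp-led cells and was chosen after seeing the data. These settings reuse the same few cells with Slc9a7 counts. In the main setting 12.9% of all genes were that much higher, and the share that stayed so under all settings was not taken. Slc9a2 and Slc9a4 stayed at least 2-fold higher in pendrin than in IMC-like cells under all 17 settings, by 3.45 to 8.02 and 2.96 to 8.63. Slc9a8 and Slc9a9 did so under 6 and 10 of 17. Batch 2 holds 3 Slc26a4+/+ pendrin cells, and values within it rest on them.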
